A study of Homo sapiens with 12 samples.

Results

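SU-DHL-4 is an established cell line of diffuse large B-cell lymphoma (DLBCL) of the germinal centre type, and the genes described here are its immunoglobulin heavy and light chain genes. Members were the rows of the deposited count table named as heavy chain constant (IGHA, IGHD, IGHE, IGHG, IGHM), heavy chain V, D or J, kappa constant, V or J, or lambda constant, V or J genes, together with IGLL1, IGLL5 and JCHAIN, which held 10 or more counts summed over the 12 libraries. Of 46863 rows, 311 bore such a name and 108 reached the count minimum; the other 203 did not. The members comprised 9 heavy chain constant, 4 IGHJ, 19 IGHV, 1 kappa constant, 5 IGKJ, 30 IGKV, 6 lambda constant, 3 IGLJ and 28 IGLV genes and 3 others, and no heavy chain D gene or IGHD was among them.

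Cells were exposed for 72 h to DMSO as the vehicle, to 1 µM Ento (Entospletinib, which inhibits SYK, the spleen tyrosine kinase), to 0.01 µM AZD (AZD5153, a bivalent BET inhibitor) or to Ento+AZD at the same concentrations. Each group comprised 3 libraries of polyadenylated RNA numbered 1 to 3. All groups are of this 1 cell line, so a library describes a culture and not a patient. Libraries held 18121993 to 24675830 counts, of which the members took 0.318% to 0.503%. The labelled cell type was checked by markers: 6 B cell markers (MS4A1, CD79A, CD79B, PAX5, BCL6, MME) summed to between 3922 and 6975 CPM (counts scaled to library size with TMM factors) in every library, the 4 T cell markers (CD3D, CD3E, CD2, CD8A) to between 0.534 and 2.14 CPM with CD3D and CD2 at 0 counts throughout, and the 4 myeloid markers (LYZ, CD14, CSF1R, ITGAM) to between 0.442 and 2.72 CPM. Of the plasma cell markers JCHAIN was abundant, while PRDM1 and SDC1 held at most 5 and 6 counts in a library. Of the same set, XBP1 held 55 to 245 counts in a library, and TNFRSF17 had enough counts to be tested.

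A B cell builds its receptor by joining a V, a D and a J segment in the heavy chain locus and a V and a J segment in the kappa or the lambda locus. The joined segments are transcribed together with a constant gene that sets the isotype or the light chain class, and as a rule a B cell uses heavy and light chain genes of 1 allele each. The receptor signals through CD79A and CD79B and then through SYK, while transcription of the loci depends on promoter and enhancer elements bound by octamer factors, their coactivator POU2AF1 and other B cell factors. Unrearranged V and constant genes can be transcribed as well, as so-called germline transcripts, without coding for a receptor chain.

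The segments with the most reads are shown first as the reference genome holds them, since most immunoglobulin reads on V and J genes fall on them. The lines give the J segments with the most counts of each locus, 5′ to 3′ on the coding strand of GRCh38, with the codons of the conserved Phe-Gly-X-Gly or Trp-Gly-X-Gly motif in capitals. IGKJ4 lies at chr2:88860886-88860922, IGKJ1 at chr2:88861886-88861923, IGHJ5 at chr14:105863814-105863862, IGHJ4 at chr14:105864215-105864260 and IGHJ6 at chr14:105863198-105863258, all on the minus strand.
IGKJ4: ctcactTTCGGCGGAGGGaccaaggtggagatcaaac
IGKJ1: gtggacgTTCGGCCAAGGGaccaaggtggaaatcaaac
IGHJ5: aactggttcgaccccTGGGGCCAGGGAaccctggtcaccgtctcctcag
IGHJ4: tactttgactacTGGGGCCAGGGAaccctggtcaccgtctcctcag
IGHJ6: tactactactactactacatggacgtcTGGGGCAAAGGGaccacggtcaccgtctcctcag
Counted from the 3′ end, IGHJ4 and IGHJ5 are identical over 35 bases and differ at 5 of 46 positions, whereas IGKJ1 and IGKJ4 are identical over 7 bases and differ at 7 of 37. These segments are shorter than the 75-base reads, so that a read counted for a J gene also covered what lies next to it.

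The next lines give the last 120 bases of the V exon of the leading V genes, with the codon of the conserved second cysteine in capitals. IGKV2-28 is read at chr2:89221698-89221817 and IGHV4-59 at chr14:106627249-106627368, both on the minus strand.
IGKV2-28: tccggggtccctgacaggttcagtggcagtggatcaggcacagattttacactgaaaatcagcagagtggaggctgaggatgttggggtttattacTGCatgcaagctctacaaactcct
IGHV4-59: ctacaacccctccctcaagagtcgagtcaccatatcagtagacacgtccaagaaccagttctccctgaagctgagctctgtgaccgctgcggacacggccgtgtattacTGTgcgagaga
The V exons of IGKV2-28 and its distal copy IGKV2D-28 are identical at all 311 positions, so that the deposited split between these rows says nothing about which copy is transcribed. In every library IGKV2-28 held 49.8% to 54.4% of the counts of the pair. Of the windows of 75 bases in the exons of IGHV4-59, 53.9% also occur in IGHV4-61. The rearranged sequence of the line itself was not analysed here.

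The transcripts were those of an IgG heavy chain and a kappa light chain. IGHG4 held 66.8% to 69.9% of the counts on heavy chain constant genes over the 12 libraries, IGHG1 11.7% to 14.7%, IGHG2 9.58% to 10.1%, IGHG3 6.75% to 7.82% and the pseudogene IGHGP 1.21% to 1.54%. IGHM, IGHE, IGHA1 and IGHA2 together reached 0.0274% to 0.144%, and IGHM, the constant gene of a naive B cell, held 0 to 7 counts in a library. The gamma genes are near copies of each other: 26.2% of the windows of 75 bases in IGHG4 and 42.3% of those in IGHG1 occur in another gamma gene, which leaves the part of the minor gamma rows uncertain. Divided by exon length, IGHG4 held 65.8% to 69.1%.

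Within the heavy chain locus IGHV4-59 took 74.2% to 81.1% of the IGHV counts and IGHJ5 68.0% to 79.9% of the IGHJ counts, with IGHJ4, IGHJ6 and IGHJ3P at 1509, 976 and 953 counts in all beside its 9282. Within the kappa locus IGKV2-28 and IGKV2D-28 together took 89.7% to 92.4% of the IGKV counts and IGKJ4 73.3% to 86.3% of the IGKJ counts. IGKC, the kappa constant gene, took 98.5% to 99.9% of the counts on light chain constant genes and 94.1% to 99.5% when IGLL5 was counted among these. The V genes with the next most counts were IGHV5-78, IGHV4-39, IGHV4-61 and IGHV3-64 in the heavy chain locus, with 5800, 2555, 396 and 86 counts in all, and IGKV2D-23, IGKV2-29 and IGKV2-40 in the kappa locus, with 3823, 2439 and 1676. Genes of the IGKV2 family held 98.7% to 99.5% of the IGKV counts. In the lambda locus the leading V genes were IGLV6-57, IGLV1-47, IGLVI-56, IGLV1-44 and IGLV7-46, with 819, 127, 122, 100 and 75 counts.

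**Figure D1:**
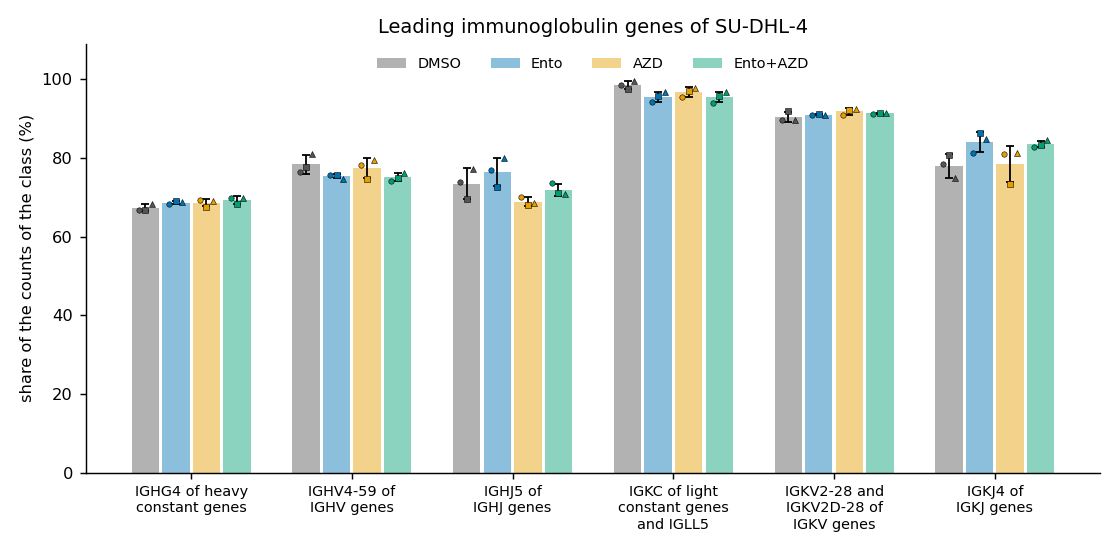
Share of the counts of a gene class (%, y axis) held by its leading gene in the 4 groups. Bars are means and error bars SD of 3 libraries; circles, squares and triangles are replicates 1, 2 and 3. IGHG4, IGHV4-59, IGHJ5, IGKC, the pair IGKV2-28 and IGKV2D-28, and IGKJ4 lead their classes in every library.

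Per length of exon the kappa constant gene was the most abundant constant gene. IGKC reached 1531 ± 25.3 CPM per kb (SD, n = 3) with DMSO, against 273 ± 31.3 for IGHG4, 460 ± 85.7 for JCHAIN, 6.85 ± 4.88 for IGLL5, 2.85 ± 1.72 for IGLC2 and 0.629 ± 0.545 for IGLC5. JCHAIN codes for the J chain that links secreted IgA and IgM into polymers. It is not a part of IgG, yet with 196755 counts it was the member with the third most counts in all, after IGKC with 252866 and IGHG4 with 213755.

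Among the alpha, epsilon and mu genes IGHA1 alone was tested, and at 105 counts in all it passed the test in no comparison. Of the 108 members, 46 passed edgeR's filter on low counts and were tested. The 62 not tested held 10 to 86 counts in all and at most 22 in a library, among them 23 IGLV, 15 IGKV and 14 IGHV genes, IGHM, IGHE, IGHA2, IGLC4, IGLC6, IGLC7, 3 IGLJ genes and IGLL1. A member was called when edgeR's quasi-likelihood test, with the replicate number as a block, gave a Benjamini-Hochberg adjusted p under 0.05 over the 16835 genes tested. Changes are given on the log2 scale with their SE. The median over the 46 members was 0.36 with Ento, −0.16 with AZD, 0.39 with Ento+AZD, −0.09 for Ento+AZD against Ento and 0.49 for Ento+AZD against AZD, where that over all genes tested was between −0.01 and 0.01. The study's methods speak of biologically independent samples and of batch as a covariate, without saying how the libraries of a group were grown, and p-values measure the spread between these libraries. Rows that share reads, such as the IGKV2 copies and the gamma genes, do not move independently, and the 3 comparisons with DMSO share the DMSO libraries.

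With Ento, 12 of the 46 tested members rose and 0 fell, that is 26.1% of them, against 4.66% of all genes tested that rose and 3.66% that fell. Of the 46, 31 were over the cutoff of the filter in every library, and the other 15 passed it through part of the libraries, which bears on every count of tested members. With AZD, 4 rose and 7 fell, 8.70% and 15.2% of the members against 9.57% and 12.7% of all genes, shares near that background. With Ento+AZD, 17 rose and 2 fell, 37.0% and 4.35% against 19.2% and 20.8%. The rising members with Ento were 6 kappa genes, the 4 genes of the constant side of the lambda locus, IGHG2 and IGHV5-78. Without the replicate block 4, 0 and 12 members were called in these 3 comparisons. For this and the other settings that follow, the share of all genes called was not counted. The count with Ento was 19 without DMSO replicate 3, and the 11 calls with AZD became 5 without AZD replicate 3, 6 without DMSO replicate 3 and 7 without AZD replicate 2.

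**Figure D2:**
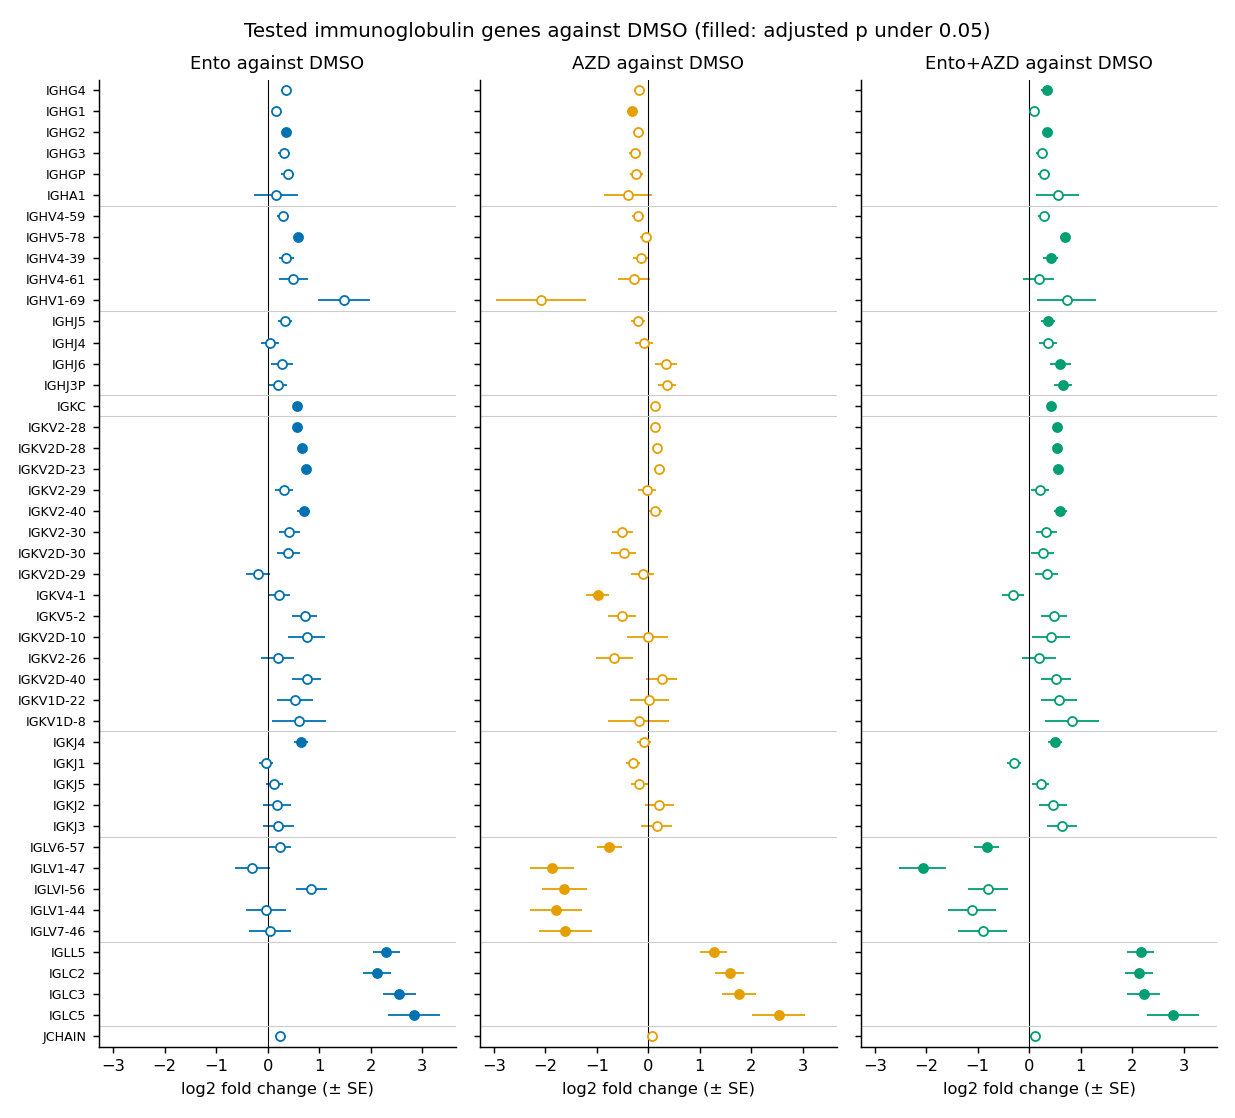
Log2 fold change with its SE (x axis) of the 46 tested members (y axis, grouped by locus and segment and ordered by counts) for Ento, AZD and Ento+AZD against DMSO. Filled points have an adjusted p under 0.05: IGLL5, IGLC2, IGLC3 and IGLC5 lie to the right in all 3 panels, while the 5 IGLV genes lie to the left with AZD.

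The rises of the lambda constant side were the largest of all member changes called against DMSO with Ento and with Ento+AZD. IGLL5, IGLC2 and IGLC3 rose with each treatment, by 2.12 to 2.56 on the log2 scale with Ento, by 1.27 to 1.76 with AZD and by 2.13 to 2.23 with Ento+AZD. IGLC5 rose by 2.84, 2.53 and 2.80 in the same order. It passed the filter on low counts through treated libraries alone, which favoured a gene low with DMSO. IGLL5 codes for an immunoglobulin lambda-like polypeptide and lies upstream of IGLC2, which starts 13.2 kb further along. IGLC2 and IGLC3 are functional lambda constant genes and IGLC5 is annotated as a pseudogene.

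The starts of these constant exons, 90 bases on the plus strand of chromosome 22, show how well the rows can be told apart. Capitals mark positions at which IGLC3 and IGLC5 differ from IGLC2. IGLC2 is read at chr22:22900976-22901065, IGLC3 at chr22:22906342-22906431 and IGLC5 at chr22:22915624-22915713, which begins 11 bases before its annotated exon.
IGLC2: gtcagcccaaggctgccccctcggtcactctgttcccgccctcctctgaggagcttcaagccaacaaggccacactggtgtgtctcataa
IGLC3: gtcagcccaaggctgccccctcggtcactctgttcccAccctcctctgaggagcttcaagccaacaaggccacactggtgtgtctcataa
IGLC5: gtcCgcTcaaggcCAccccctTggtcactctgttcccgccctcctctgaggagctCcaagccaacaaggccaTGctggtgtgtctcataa
IGLC3 differs at 1 and IGLC5 at 8 of the 90 positions. Of the windows of 75 bases 42.5% are shared by IGLC2 and IGLC3, while IGLC5 shares none with the other lambda constant genes or IGLL5. IGLL5 contains the exons of IGLC1 and IGLJ1 on the same strand: all windows of 75 bases of IGLC1 lie in it, so that reads of IGLC1 may be held by the IGLL5 row or have been left out as ambiguous.

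IGLL5 stood at 8.58, 16.0 and 2.95 CPM in the DMSO replicates 1 to 3, at 52.4, 45.2 and 29.5 with Ento, at 30.5, 18.8 and 13.4 with AZD and at 50.0, 40.3 and 25.9 with Ento+AZD. The DMSO libraries were far apart, with replicate 3 the lowest, and AZD replicate 3 lay below DMSO replicate 2, whereas the Ento and Ento+AZD libraries all lay above the DMSO libraries. Each treated library was above the DMSO library of its number, by 2.83 to 10.0 times with Ento, by 1.18 to 4.53 times with AZD and by 2.52 to 8.80 times with Ento+AZD. The fit gave a log2 fold change of 2.31 ± 0.26 (SE, adjusted p = 1.62e-04) with Ento, 1.27 ± 0.27 (adjusted p = 0.00496) with AZD and 2.17 ± 0.26 (adjusted p = 3.25e-05) with Ento+AZD. Whether more cells carried the transcript or each cell carried more of it cannot be told apart in bulk RNA.

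IGLC2 was at 1.55, 1.97 and 0.432 CPM with DMSO, 7.32, 5.37 and 3.98 with Ento, 6.19, 2.62 and 2.76 with AZD and 8.02, 5.24 and 3.72 with Ento+AZD. No treated library fell into the DMSO range. Its log2 fold change was 2.12 ± 0.28 with Ento (adjusted p = 4.28e-04), 1.57 ± 0.29 with AZD (adjusted p = 0.00233) and 2.13 ± 0.28 with Ento+AZD (adjusted p = 5.74e-05).

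IGLC3, the neighbour of IGLC2, stood at 0.835, 1.51 and 0.275 CPM with DMSO, 5.38, 5.32 and 4.08 with Ento, 4.30, 2.46 and 1.89 with AZD and 5.77, 3.43 and 2.82 with Ento+AZD. Again every treated library lay above the DMSO libraries. Its log2 fold change was 2.56 ± 0.31 with Ento (adjusted p = 2.71e-04), 1.76 ± 0.33 with AZD (adjusted p = 0.00288) and 2.23 ± 0.32 with Ento+AZD (adjusted p = 1.23e-04).

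The pseudogene IGLC5, which shares no read-length window with its neighbours, held 7, 6 and 0 counts in the DMSO libraries, 41, 16 and 28 with Ento, 45, 11 and 15 with AZD and 31, 21 and 22 with Ento+AZD. The groups with an inhibitor did not overlap with DMSO, although the depth was low. IGLC5 passed the filter on low counts through the treated libraries alone, with 0 DMSO libraries over its cutoff, which favoured a gene that was low with DMSO. Its log2 fold change was 2.84 ± 0.50 with Ento (adjusted p = 0.00382), 2.53 ± 0.51 with AZD (adjusted p = 0.00423) and 2.80 ± 0.51 with Ento+AZD (adjusted p = 6.72e-04). The members of this side that were not tested held few reads: IGLC4 had 0, 2 and 1 counts with DMSO and 13, 11 and 1 with Ento+AZD, and IGLJ3 had 0, 0 and 0 and 12, 13 and 3.

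**Figure D3:**
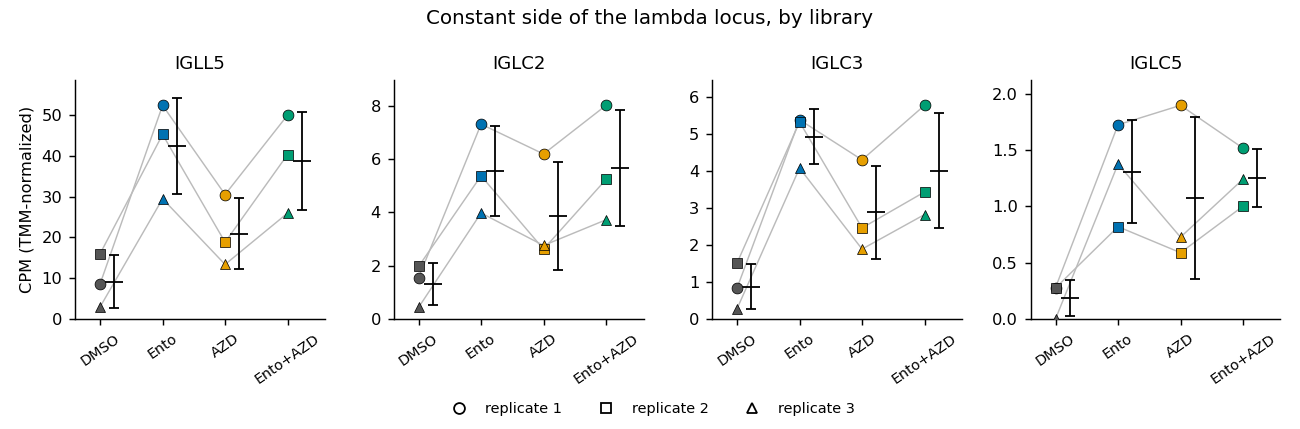
CPM after TMM normalization (y axis) of IGLL5, IGLC2, IGLC3 and IGLC5 in each library of the 4 groups. Lines join libraries of the same replicate number, and bars beside the points are mean and SD of 3 libraries. All 3 Ento and all 3 Ento+AZD libraries lie above the DMSO libraries in each panel; AZD overlaps with DMSO for IGLL5.

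Summed over IGLL5 and the 6 lambda constant members, the level was 11.7 ± 8.06 CPM with DMSO, 54.6 ± 14.3 with Ento, 29.0 ± 12.6 with AZD and 50.4 ± 16.2 with Ento+AZD (SD, n = 3). Their share of all light chain constant counts including IGLL5 was 1.42% ± 0.955 with DMSO, 4.38% ± 1.27 with Ento, 3.19% ± 1.23 with AZD and 4.45% ± 1.36 with Ento+AZD (SD, n = 3), so that kappa still dominated in every group. In the fit without the replicate block, the adjusted p of these 4 genes was 0.0582 to 0.127 with Ento, 0.0723 to 0.194 with AZD and 0.0152 to 0.0230 with Ento+AZD, so that the calls for the single agents rest on the pairing. No call of the 4 genes against DMSO was lost when any of the libraries was left out.

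None of the 4 genes passed the test between the combination and Ento, which does not show that they were alike. The log2 fold changes of Ento+AZD against Ento were −0.14 ± 0.24 for IGLL5 (adjusted p = 0.715), 0.01 ± 0.24 for IGLC2 (adjusted p = 0.985), −0.33 ± 0.26 for IGLC3 (adjusted p = 0.398) and −0.05 ± 0.36 for IGLC5 (adjusted p = 0.942). Compared with the sum of the single-agent effects, the combined effect was lower, with interaction terms of −1.41 to −2.58 on the log2 scale (edgeR, unadjusted p = 2.02e-04 to 0.00133). The test of the interaction called 0 of the 46 members and 0% of all genes at an adjusted p under 0.05 in edgeR, where these 4 genes had an adjusted p of 0.444; 7 members had an unadjusted p under 0.05, and DESeq2 called 1 member, IGLC3 (adjusted p = 0.0136). Without DMSO replicate 2, edgeR called all 4 genes. For the unadjusted p, for DESeq2 and for the fit without that library, the share of all genes was not counted. These counts therefore have no background beside them.

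On the V side of the same locus the genes called with AZD fell. Of the 28 IGLV members 5 were tested. They fell with AZD, with log2 fold changes of −0.76 to −1.88, while none passed the test with Ento. All but IGLV6-57 passed the filter on low counts through DMSO and Ento libraries alone, with 0 libraries of AZD and of Ento+AZD over its cutoff of 0.478 CPM, so that the filter itself favoured tested genes that were low with AZD. The 23 IGLV members not tested went both ways: the mean level with AZD was above that with DMSO for 10 and below for 13, and their summed level was 2.15 ± 0.444 CPM with AZD and 2.64 ± 0.125 with DMSO (SD, n = 3). IGLV6-57, the IGLV member with the most counts, held 4.17, 2.98 and 4.05 CPM with DMSO, 4.16, 3.53 and 5.50 with Ento, 3.03, 1.82 and 1.74 with AZD and 2.20, 2.43 and 1.58 with Ento+AZD. With AZD 1 library overlapped with the DMSO range, and with Ento+AZD none did. Its log2 fold change was −0.76 ± 0.24 with AZD (adjusted p = 0.0334), −0.83 ± 0.24 with Ento+AZD (adjusted p = 0.0138) and 0.24 ± 0.22 with Ento (adjusted p = 0.547).

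IGLV1-47, a functional V gene, held 22, 14 and 22 counts with DMSO, 28, 6 and 10 with Ento, 8, 2 and 4 with AZD and 4, 5 and 2 with Ento+AZD. Both groups with AZD lay below all DMSO libraries, and the Ento libraries lay on both sides of the DMSO range. Its log2 fold change was −1.88 ± 0.43 with AZD (adjusted p = 0.00757) and −2.07 ± 0.45 with Ento+AZD (adjusted p = 0.00244).

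IGLVI-56 is a V pseudogene next to IGLV6-57. It held 9, 11 and 17 counts with DMSO, 23, 13 and 22 with Ento, 3, 3 and 4 with AZD and 3, 7 and 7 with Ento+AZD. Against DMSO it fell with AZD, with a log2 fold change of −1.63 ± 0.43 (adjusted p = 0.0165). With Ento+AZD the log2 fold change of −0.79 ± 0.39 (adjusted p = 0.119) did not pass the test, and the groups overlapped in CPM. IGLVI-56 was lower with Ento+AZD than with Ento, with a log2 fold change of −1.64 ± 0.36 (adjusted p = 0.00574).

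IGLV1-44 and IGLV7-46 fell with AZD, with log2 fold changes of −1.80 ± 0.51 (adjusted p = 0.0217) and −1.62 ± 0.52 (adjusted p = 0.0364), each from at most 19 counts in a library. Summed over the 28 IGLV members the level was 8.61 ± 0.995 CPM with DMSO, 11.3 ± 1.73 with Ento, 5.00 ± 1.17 with AZD and 6.04 ± 1.28 with Ento+AZD (SD, n = 3). Against Ento, Ento+AZD was lower for 3 members, IGLV1-47 (−1.78 ± 0.47, adjusted p = 0.0165), IGLV6-57 (−1.06 ± 0.24, adjusted p = 0.00693) and IGLVI-56, and higher for 0, which is 6.52% of the tested members, against 12.2% of all genes lower and 8.27% higher. Of these, IGLV1-47 and IGLVI-56 had passed the filter on low counts through DMSO and Ento libraries alone. That favoured genes low with AZD and with Ento+AZD, also where a library was left out. Without the replicate block 0 of these 3 were called, and IGLVI-56 was the one kept whichever library was left out: the call of IGLV1-47 was lost without Ento replicate 1 or Ento+AZD replicate 1 or 3, and that of IGLV6-57 without Ento replicate 3 or Ento+AZD replicate 3. The adjusted p of the 5 IGLV genes with AZD was 0.0753 to 0.223 without the replicate block. The call of IGLV1-47 with AZD was kept whichever library was left out. That of IGLV6-57 was lost without DMSO replicate 1 or 3 or AZD replicate 2 or 3, that of IGLVI-56 without DMSO replicate 3 or AZD replicate 2 or 3, that of IGLV1-44 without DMSO replicate 3 or AZD replicate 1 or 3, and that of IGLV7-46 without any of the DMSO or AZD libraries. With Ento+AZD, the call of IGLV6-57 was lost without Ento+AZD replicate 1 or 3.

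The members along the locus and the genes between and beside them can be set in order by the distance of their start from that of IGLL5. The 5 tested IGLV genes lie at −692 to −507 kb, and the 3 constant genes at 13.2 to 27.9 kb. Among the neighbours BCR, a regulator of small GTPases that starts 292 kb downstream, rose with Ento by 0.51 ± 0.094 (adjusted p = 0.00502), with AZD by 0.47 ± 0.094 (adjusted p = 0.00409) and with Ento+AZD by 0.85 ± 0.094 (adjusted p = 1.92e-05). GNAZ, a G protein alpha subunit 183 kb downstream, fell with AZD (log2 fold change −0.50 ± 0.12, adjusted p = 0.00958) and with Ento+AZD (−0.58 ± 0.12, adjusted p = 0.00168). PRAME, a cancer-testis antigen that lies among the IGLV genes, fell with Ento+AZD (log2 fold change −0.77 ± 0.23, adjusted p = 0.0161). The pseudogene BMS1P20, which also lies among the IGLV genes, at −585 kb, rose with AZD by 0.27 ± 0.083 (adjusted p = 0.0317) and with Ento+AZD by 0.40 ± 0.083 (adjusted p = 0.00186). RAB36, a small GTPase gene 258 kb downstream, fell with AZD (log2 fold change −1.05 ± 0.28, adjusted p = 0.018) and was at 0.58 ± 0.24 with Ento+AZD (adjusted p = 0.0681).

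**Figure D4:**
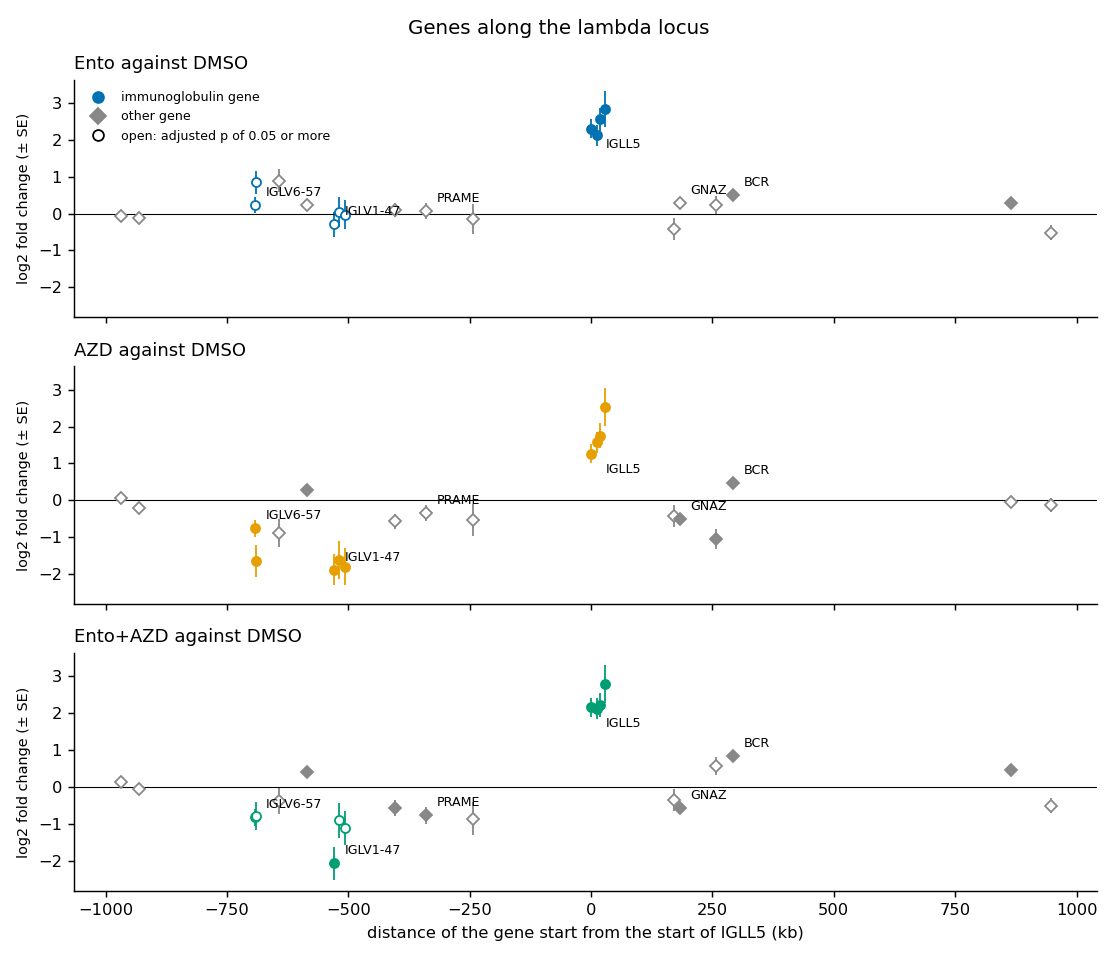
Log2 fold change with its SE (y axis) against the distance of a gene's start from that of IGLL5 in kb (x axis), for tested genes within 1000 kb on chromosome 22. Circles are immunoglobulin genes and diamonds other genes; filled symbols have an adjusted p under 0.05. IGLL5 and the constant genes rise in all 3 panels, and the IGLV genes lie below 0 with AZD and with Ento+AZD.

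Of the list of genes next to or inside the 3 immunoglobulin loci, 15 were tested: 1 rose and 0 fell with Ento, 1 rose and 3 fell with AZD, and 1 rose and 4 fell with Ento+AZD. The rises and falls were 6.67% and 0% of the list with Ento, against 4.66% and 3.66% of all genes. With AZD they were 6.67% and 20.0%, against 9.57% and 12.7%. With Ento+AZD they were 6.67% and 26.7%, against 19.2% and 20.8%, so that the share of falls was near the background. The gene with the smallest adjusted p among them was CRIP1, a small LIM domain protein beside the heavy chain locus, which stood at 113, 82.9 and 72.3 CPM with DMSO and 44.3, 32.1 and 36.0 with Ento+AZD (log2 fold change −1.25 ± 0.11, adjusted p = 5.72e-06).

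The kappa constant gene and the leading IGKV and IGKJ genes rose with Ento and with Ento+AZD. Of 21 tested kappa members 6 rose in each comparison, 28.6% of them, against 4.66% of all genes with Ento and 19.2% with Ento+AZD. The 6 genes were the same: IGKC, IGKV2-28, IGKV2D-28, IGKV2D-23, IGKV2-40 and IGKJ4. They rose by 0.56 to 0.75 with Ento and by 0.43 to 0.60 with Ento+AZD on the log2 scale, and none of the 6 passed the test with AZD.

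IGKC was at 789, 815 and 797 CPM with DMSO, 1114, 1279 and 1198 with Ento, 906, 842 and 863 with AZD and 1056, 1162 and 1014 with Ento+AZD. The DMSO libraries lay close together and below all treated libraries, and those with Ento and Ento+AZD were above those with AZD. Against DMSO, the log2 fold change was 0.58 ± 0.075 with Ento (adjusted p = 3.81e-04), 0.43 ± 0.075 with Ento+AZD (adjusted p = 5.08e-04) and 0.12 ± 0.075 with AZD (adjusted p = 0.256), that is 1.49 times the DMSO level with Ento and 1.34 times with Ento+AZD.

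IGKV2-28, the V gene that with its copy takes most IGKV reads, was at 212, 225 and 220 CPM with DMSO, 315, 310 and 346 with Ento, 244, 224 and 252 with AZD and 302, 339 and 312 with Ento+AZD. As with IGKC, the groups with Ento did not overlap with DMSO or AZD. The log2 fold change was 0.56 ± 0.075 with Ento (adjusted p = 4.81e-04) and 0.54 ± 0.075 with Ento+AZD (adjusted p = 9.17e-05). For IGKV2D-28, whose V exon is the same, it was 0.67 ± 0.078 and 0.54 ± 0.078 (adjusted p = 2.29e-04 and 1.24e-04).

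IGKJ4 rose with Ento by 0.64 ± 0.14 (adjusted p = 0.0115), from 143 ± 4.71 to 223 ± 22.9 CPM (SD, n = 3). The J segment with the next most counts, IGKJ1, had a log2 fold change of −0.03 ± 0.13 (adjusted p = 0.911). Its share of the IGKJ counts was 14.1% ± 2.92 with DMSO, 9.68% ± 1.75 with Ento, 12.4% ± 0.211 with AZD and 8.69% ± 0.918 with Ento+AZD (SD, n = 3). The call of IGKJ4 with Ento was lost without Ento replicate 2 (adjusted p = 0.0547), and no other kappa call against DMSO with Ento or Ento+AZD was lost when a library was left out.

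Without the replicate block IGKC, IGKV2-28, IGKV2D-28 and IGKV2D-23 were still called with Ento, and all 6 kappa genes with Ento+AZD. With AZD 1 of the 21 tested kappa members fell and 0 rose, 4.76% and 0%, against 12.7% and 9.57% of all genes. The falling gene was IGKV4-1, the V gene nearest to the J segments. It went from 2.94, 2.57 and 2.71 to 1.94, 1.02 and 1.16 CPM, a log2 fold change of −0.99 ± 0.22 (adjusted p = 0.00738). This call was lost without AZD replicate 3 and without the block (adjusted p = 0.0667).

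**Figure D5:**
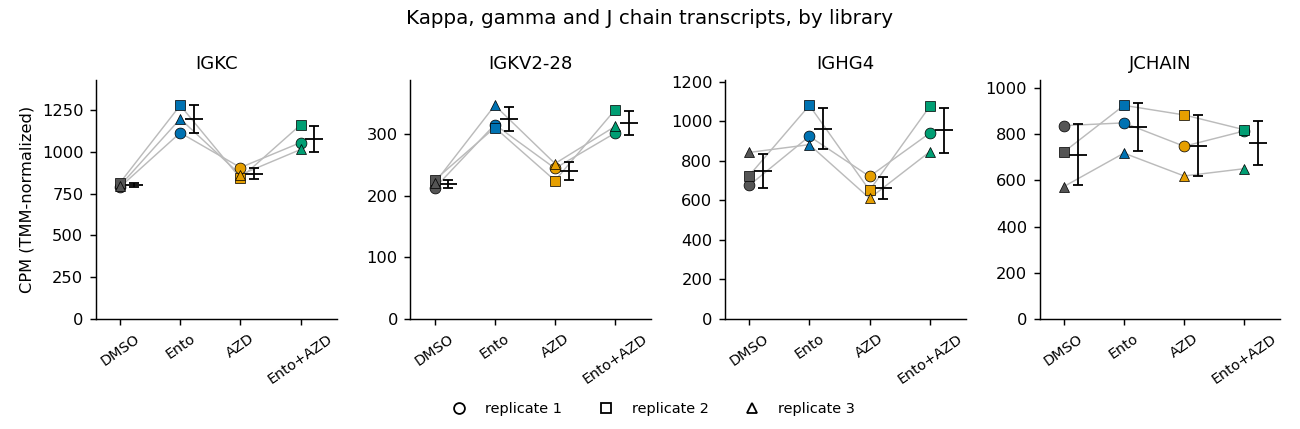
CPM after TMM normalization (y axis) of IGKC, IGKV2-28, IGHG4 and JCHAIN in each library of the 4 groups. Lines join libraries of the same replicate number, and bars beside the points are mean and SD of 3 libraries. IGKC and IGKV2-28 are higher with Ento and Ento+AZD than with DMSO in every library; JCHAIN overlaps between all groups.

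Of 15 tested heavy chain members 2 rose with Ento, 7 rose with Ento+AZD and 1 fell with AZD. The rises with Ento, AZD and Ento+AZD were 13.3%, 0% and 46.7% of these members, against 4.66%, 9.57% and 19.2% of all genes. The 1 fall with AZD was 6.67% of them, against 12.7% of all genes. The median log2 fold change of the heavy chain members was 0.34 with Ento, 0.36 with Ento+AZD and −0.20 with AZD. For the kappa members it was 0.53, 0.46 and −0.03, and the difference between the loci was not tested. IGHG4 was at 675, 724 and 842 CPM with DMSO, 923, 1079 and 881 with Ento, 720, 650 and 610 with AZD and 939, 1074 and 845 with Ento+AZD. DMSO replicate 3 was the highest of its group, and Ento+AZD replicate 3 exceeded it by little. The log2 fold change was 0.34 ± 0.11 with Ento+AZD (adjusted p = 0.0188), 0.36 ± 0.11 with Ento (adjusted p = 0.0522) and −0.18 ± 0.11 with AZD (adjusted p = 0.236).

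IGHG2 rose with Ento by 0.36 ± 0.10 (adjusted p = 0.0416) and with Ento+AZD by 0.35 ± 0.10 (adjusted p = 0.0136), while IGHG1 fell with AZD from 155 ± 6.30 to 124 ± 12.1 CPM (log2 fold change −0.33 ± 0.087, adjusted p = 0.017). Since gamma rows share reads, these are not separate results for separate isotypes. The call of IGHG1 with AZD was lost without AZD replicate 2, AZD replicate 3 or DMSO replicate 3. That of IGHG2 with Ento was lost without any of 8 libraries, with DMSO replicate 3, AZD replicate 1, Ento+AZD replicate 2 and Ento+AZD replicate 3 as the exceptions. Those of IGHG2 and IGHG4 with Ento+AZD were lost without DMSO replicate 1 or 2 or Ento+AZD replicate 1 or 2.

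IGHV4-59, the leading heavy chain V gene, was at 110 ± 16.3 CPM with DMSO, 135 ± 12.2 with Ento, 94.6 ± 8.31 with AZD and 134 ± 14.4 with Ento+AZD (SD, n = 3) and passed the test in none of the comparisons with DMSO (Ento+AZD log2 fold change 0.29 ± 0.11, adjusted p = 0.0527). IGHV4-39 and, of the J segments, IGHJ5, IGHJ6 and the pseudogene IGHJ3P rose with Ento+AZD by 0.36 to 0.65, and each of these calls was lost without Ento+AZD replicate 2 and without the block. The calls of IGHV4-39, IGHJ5 and IGHJ6 were lost as well without DMSO replicate 1 or 2 or Ento+AZD replicate 1, that of IGHJ6 without Ento+AZD replicate 3, and that of IGHJ5 without any of the Ento libraries, without AZD replicate 2 or 3 and with RLE size factors, another scaling of the libraries.

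The V pseudogene IGHV5-78 was the heavy chain member whose rise with Ento+AZD was called whichever library was left out. It was at 19.7, 17.5 and 16.2 CPM with DMSO, 26.5, 28.0 and 26.0 with Ento, 17.4, 19.8 and 14.4 with AZD and 29.2, 32.4 and 25.0 with Ento+AZD. The libraries of both groups with Ento lay above all others. Its log2 fold change was 0.59 ± 0.10 with Ento (adjusted p = 0.0024) and 0.69 ± 0.10 with Ento+AZD (adjusted p = 9.51e-05), of which only the latter was kept without the block (adjusted p = 0.107 and 0.00955).

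JCHAIN was not called in any comparison. It was at 837, 723 and 573 CPM with DMSO, 849, 925 and 718 with Ento, 748, 884 and 619 with AZD and 814, 819 and 651 with Ento+AZD, with replicate 3 the lowest in each group. In the fit, the log2 fold change was 0.23 ± 0.083 with Ento (adjusted p = 0.101), 0.08 ± 0.083 with AZD (adjusted p = 0.537) and 0.10 ± 0.083 with Ento+AZD (adjusted p = 0.341). IGLL1, part of the surrogate light chain of precursor B cells, held 17 counts over all libraries.

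Ento added to AZD was compared as Ento+AZD against AZD. Here 19 of the 46 tested members were higher and 0 lower, 41.3% of the members against 5.85% of all genes higher and 6.04% lower. Of these, 10 were heavy chain and 8 kappa members, and the last was IGLL5 (log2 fold change 0.90 ± 0.24, adjusted p = 0.0295). IGHV5-78 was higher by 0.75 ± 0.10 (adjusted p = 6.78e-04), IGHG2 by 0.54 ± 0.10 (adjusted p = 0.0054), IGHG4 by 0.53 ± 0.11 (adjusted p = 0.00781) and IGKV2-28 by 0.40 ± 0.075 (adjusted p = 0.00523). Among the called members were also IGHG1, IGHG3, IGHGP, IGHV4-59, IGHV4-39 and IGHJ5, and IGKC, IGKJ4, IGKV2D-28, IGKV2D-23, IGKV2-40, IGKV2-30 and IGKV5-2.

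IGHV1-69 was called at the lowest level. It passed the filter through 2 Ento libraries and 1 Ento+AZD library, with 0 AZD libraries over the cutoff. It held 0, 1 and 2 counts with AZD and 11, 5 and 6 with Ento+AZD, a ratio of the summed counts of 7.82 (95% exact interval for counting error 2.35 to 40.8). The count of 19 depended on the libraries: it was 3 without AZD replicate 2, 8 without Ento+AZD replicate 2, 10 without AZD replicate 3, 11 without Ento+AZD replicate 1 and 0 without the replicate block. The shares of all genes called in these fits were not counted. The call of IGLL5 was lost without AZD replicate 2 or 3 or Ento+AZD replicate 1 or 3, and that of IGHV1-69 without AZD replicate 1 or 2 or Ento+AZD replicate 1 or 3. IGHG2, IGHV5-78 and IGKV2-28 were called whichever library was left out.

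The partners of the receptor and the factors of its genes were counted from gene lists. Of 20 tested BCR partners and light chain assembly factors, 6 rose and 0 fell with Ento, 4 rose and 0 fell with AZD, and 7 rose and 2 fell with Ento+AZD, with median log2 fold changes of 0.23, 0.16 and 0.23. The rises with Ento, AZD and Ento+AZD were 30%, 20% and 35% of the list, against 4.66%, 9.57% and 19.2% of all genes. The falls were 0%, 0% and 10%, against 3.66%, 12.7% and 20.8%. CD79A, a signalling chain of the receptor, was at 728, 816 and 474 CPM with DMSO and 898, 1169 and 798 with Ento+AZD (log2 fold change 0.52 ± 0.11, adjusted p = 0.00162). CD79B, its partner chain, was at 496, 430 and 236 and 590, 630 and 452 CPM (log2 fold change 0.56 ± 0.12, adjusted p = 0.00159). For both genes these groups overlapped and replicate 3 was the lowest of each, and neither call held without the block (adjusted p = 0.197 and 0.163).

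Of the same list VPREB3, a protein of the endoplasmic reticulum that associates with immunoglobulin chains, rose with Ento+AZD by 0.46 ± 0.083 (adjusted p = 6.11e-04) and HERPUD1, a component of protein degradation at the endoplasmic reticulum, by 0.41 ± 0.078 (adjusted p = 9.61e-04). SEC11C, a subunit of the signal peptidase, fell (log2 fold change −0.37 ± 0.075, adjusted p = 0.00139).

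Of 22 tested transcription factors of the immunoglobulin promoters and enhancers, 7 rose and 0 fell with Ento, 5 rose and 6 fell with AZD, and 8 rose and 5 fell with Ento+AZD, with medians of 0.11, −0.03 and 0.12. The rises with Ento, AZD and Ento+AZD were 31.8%, 22.7% and 36.4% of the list, against 4.66%, 9.57% and 19.2% of all genes. The falls were 0%, 27.3% and 22.7%, against 3.66%, 12.7% and 20.8%. With Ento+AZD the share of falls was near that of all genes. POU2AF1, the coactivator of the octamer factors, was at 381, 442 and 390 CPM with DMSO, 550, 575 and 557 with Ento, 326, 383 and 325 with AZD and 461, 491 and 438 with Ento+AZD. It rose with Ento by 0.47 ± 0.068 (adjusted p = 8.75e-04), without overlap between the groups, and fell with AZD (log2 fold change −0.23 ± 0.068, adjusted p = 0.0249), where AZD replicate 2 lay within the DMSO range. POU2F2, an octamer factor, had a log2 fold change of 0.38 ± 0.083 with Ento+AZD (adjusted p = 0.00239).

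BACH2, a repressor of plasma cell differentiation, rose with Ento by 1.36 ± 0.10 (adjusted p = 4.82e-06) and fell with AZD (log2 fold change −0.38 ± 0.10, adjusted p = 0.0146). XBP1, which drives secretory capacity in plasma cells, rose from 80, 70 and 55 counts with DMSO to 190, 179 and 95 with Ento, 161, 143 and 94 with AZD and 245, 189 and 123 with Ento+AZD. The groups did not overlap with DMSO, and with Ento+AZD the log2 fold change was 1.70 ± 0.16 (adjusted p = 6.69e-06). IRF8, which acts with PU.1 on light chain enhancers, and ETS1 rose with Ento+AZD by 0.65 ± 0.078 (adjusted p = 3.06e-05) and 0.43 ± 0.074 (adjusted p = 4.60e-04).

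Of the 22 tested genes of V(D)J recombination, class switching and hypermutation, 1 rose and 0 fell with Ento. With AZD 0 rose and 6 fell, and with Ento+AZD 2 rose and 11 fell. The rises with Ento, AZD and Ento+AZD were 4.55%, 0% and 9.09% of the list, against 4.66%, 9.57% and 19.2% of all genes. The falls were 0%, 27.3% and 50.0%, against 3.66%, 12.7% and 20.8%. MSH6, a mismatch recognition protein, fell with Ento+AZD (log2 fold change −0.81 ± 0.10, adjusted p = 4.05e-05). MAD2L2, a subunit of shieldin, fell as well (log2 fold change −0.98 ± 0.12, adjusted p = 2.80e-05). RAG1, which starts V(D)J recombination, held at most 9 counts in a library and RAG2 0 counts in each, which allows up to 3 in a library by counting error alone.

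Of 7 tested plasma cell markers 3 rose and 0 fell with Ento, and 1 rose and 2 fell with AZD. With Ento+AZD 2 rose and 1 fell. The rises with Ento, AZD and Ento+AZD were 42.9%, 14.3% and 28.6% of the list, against 4.66%, 9.57% and 19.2% of all genes. The falls were 0%, 28.6% and 14.3%, against 3.66%, 12.7% and 20.8%. For a list of 7 genes, the shares with Ento+AZD were near those of all genes. CD38 rose with Ento+AZD by 0.60 ± 0.079 (adjusted p = 5.85e-05), while TNFRSF17, the BCMA receptor of plasma cells, fell (log2 fold change −0.63 ± 0.18, adjusted p = 0.0106). The summed CPM of the plasma cell marker set, carried by JCHAIN (SDC1, PRDM1, XBP1, TNFRSF17 and JCHAIN), was 588 to 858 with DMSO, 738 to 949 with Ento, 630 to 905 with AZD and 664 to 840 with Ento+AZD, and its part in the results above was not tested.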

How the data were processed

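SU-DHL-4 cells of 4 groups (3 libraries each) were sequenced as single reads of 75 bases. The deposited table holds raw counts per gene symbol; before deposit the authors converted the runs with bcl2fastq 2.19, trimmed reads with cutadapt through Trim Galore, and aligned and counted them against GRCh38 with Rsubread. Versions other than that and the treatment of reads that match several genes are not given in the sources used here, nor is whether counting used strand, while on the opposite strand IGHG2 and IGHG4 overlap microRNA genes and JCHAIN another gene. A second table of normalized values was not used. 0 columns of the count table were left out.

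Groups and replicate numbers came from the sample titles. Genes were filtered with filterByExpr (minimum count 10, minimum total 15), which left 16835, normalized by TMM and fitted with edgeR 4.0.16 (limma 3.58.1, R 4.3.3) with group and replicate number as terms; 6 contrasts were tested by the quasi-likelihood test and adjusted over all genes tested. The numbers were checked for pairing by the correlation of deviations from group means: it was 0.213 to 0.703 in the 18 pairs of libraries with the same number and −0.627 to 0.325 in the 36 with different numbers. What the number stands for is not given in the labels. Alternatives were no replicate block, DESeq2 size factors (RLE) in edgeR, normalization without the members, no filter, DESeq2 1.42.0, an added limit on the fold, each library left out, and shares by exon length.

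Libraries held 18121993 to 24675830 counts, so that 1 count was worth 0.0393 to 0.0564 CPM. Intervals cover counting error only. Positions, exon lengths, gene types and sequences are from GRCh38 with GENCODE release 44; a window of 75 bases counted as shared when its sequence occurred in the exons of another member. The members and lists were chosen with earlier results of these data known. Named are all constant members, IGLL1, IGLL5, JCHAIN, the 5 V genes of each locus and the J genes with the most counts, members called in any contrast, and of each list the 4 genes with the smallest adjusted p for Ento+AZD, with CD79A, CD79B, POU2AF1 and POU2F2; RAG1, RAG2, RAB36 and BMS1P20 were added after their values were seen, and some genes of the lists are not reported here. The fit was also run on simulated counts with known changes. These held no effect of the replicate number, so that the run does not bear on the replicate block.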

Additional observations from a re-analysis of the deposited data

How the results depend on the processing

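The pairing by replicate number was the choice that most affected the calls. Of 64 member calls over all comparisons, 48 were lost without the replicate block, 1 with RLE size factors, 0 with the members left out of the normalization, 2 without the filter on low counts and 3 of the 57 with an adjusted p in DESeq2; 0 reversed. Leaving out a library lost 4 to 22 of them, the most without AZD replicate 2. 16 calls were kept under all of these settings, 4 with Ento and 12 with Ento+AZD, both against DMSO.

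Without the replicate block the members called were 4 rather than 12 with Ento, 0 rather than 11 with AZD, 12 rather than 19 with Ento+AZD, 0 rather than 3 for Ento+AZD against Ento and 0 rather than 19 for Ento+AZD against AZD. Without the filter 20 were called with Ento, 5 for Ento+AZD against Ento and 4 for the interaction; in DESeq2 7 with AZD, 1 for Ento+AZD against Ento and 1 for the interaction. With an absolute log2 fold change over 1 added, 4 were called with Ento, 5 with Ento+AZD and 1 for Ento+AZD against AZD. With a library left out the count was 10 to 19 with Ento (19 without DMSO replicate 3), 5 to 12 with AZD (5 without AZD replicate 3, 6 without DMSO replicate 3, 7 without AZD replicate 2), 14 to 28 with Ento+AZD, 2 to 4 for Ento+AZD against Ento (2 without Ento replicate 1 or 3 or Ento+AZD replicate 1 or 3), 3 to 23 for Ento+AZD against AZD and 0 to 4 for the interaction (4 without DMSO replicate 2). The share of all genes called was counted in the main fit only. Whether the losses under other settings were particular to the members was therefore not tested, nor were their causes. Divided by exon length, the DMSO share of heavy chain constant counts moved to 66.4% for IGHG4, 6.91% for IGHG3 and 3.17% for IGHGP.

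The 62 members not tested held at most 22 counts in a library. In the fit without the filter 1 of them was called higher with Ento (IGHV1-69D), 1 lower with AZD (IGLV4-60) and 3 higher with Ento+AZD (IGLJ2, IGLJ3 and IGLC4), named after their values were seen.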
